A study of Mus musculus with 8 samples.

Results

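The genes described here are the mouse zinc finger genes with symbols from *Zfp900* to *Zfp999*, chosen by their symbol as protein-coding genes on chromosomes 1 to 19 in GENCODE. There were 63 of them among 20807 protein-coding genes on these chromosomes, and a further match by name, *Zfp939*, was left out as an annotated pseudogene. Stromal cells were isolated on D4 from the uterine horns of WT mice aged 8 to 12 weeks, with 5 to 10 mice pooled, and were cultured for a few hours. The labels give day 4 of pregnancy with mating in one field and pseudopregnant mice in another. Chromatin immunocleavage sequencing (ChIC-Seq), in which an antibody guides a nuclease to its antigen on chromatin and the released fragments are sequenced, was done with antibodies to PBRM1 (3 replicates) and BRG1 (3 replicates). All samples shared the same genotype, cell type and day, so that the antibody was the only labelled difference, and 2 IgG libraries were not analysed here.

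PBRM1 is a bromodomain subunit that defines one form of the SWI/SNF chromatin remodeling complex, and BRG1 is the ATPase that drives several forms of it. Mouse genes numbered in this range belong largely to the KRAB zinc finger family. Proteins of this family bind DNA through rows of zinc fingers, and many silence transposable elements and imprinted loci by recruiting the corepressor TRIM28, which brings the histone methyltransferase SETDB1 and HP1 proteins. The family has grown by repeated tandem duplication, so that many members lie in clusters of close copies.

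Each library gave a list of peaks, as did the pooled fragments of each antibody, for 8 lists in all. A promoter peak was a peak overlapping the 2000 bp on either side of any annotated transcription start site (TSS) of the gene. The value of a peak is its fold enrichment, the fragment pileup over the local background in the same library, on a linear scale. The replicates rested on 8868777 to 16505239 fragments and 21912 to 40610 peaks, and the pooled lists on 38144108 (PBRM1) and 37842839 (BRG1) fragments. The labels do not say that replicates came from separate mice, so that p values measure the spread between these libraries only. As a check of the labelled cell type, 4 of 7 stromal marker promoters (57.1%, near the 53.5% of all protein-coding genes), namely *Vim*, *Pdgfra*, *Hand2* and *Hoxa10*, had a peak in all 6 replicates. No epithelial (0 of 6), leukocyte (0 of 3) or endothelial (0 of 2) marker did, although all 6 epithelial marker promoters had a peak in both pooled lists, so that these few promoters do not settle the cell type. A promoter peak marks the presence of the antigen or of open chromatin and is no measure of expression.

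The promoters that carry the results are printed first, as RefSeq gives them on GRCm38.p6, from 200 bases before to 30 bases after the annotated start, on the strand of the gene. Capitals mark exact matches on either strand to CCAAT (the NFY word), GGGCGG (SP/KLF) and CCGGAAG (ETS), and to 2 words chosen after the sequences were seen, CAGTCAG and GAGTGAC, where matches of neighbouring words can overlap. Of the 63 genes, 53 had an entry in the RefSeq promoter table, with 60 windows. The first set holds 4 of the genes with the highest PBRM1 fold enrichment among those with a peak in every replicate, in order *Zfp963* (chr8:69749933-69750162, minus strand), *Zfp994* (chr17:22225585-22225814, minus strand), *Zfp983* (chr17:21650411-21650640, plus strand) and *Zfp961* (chr8:71950866-71951095, plus strand).
Zfp963: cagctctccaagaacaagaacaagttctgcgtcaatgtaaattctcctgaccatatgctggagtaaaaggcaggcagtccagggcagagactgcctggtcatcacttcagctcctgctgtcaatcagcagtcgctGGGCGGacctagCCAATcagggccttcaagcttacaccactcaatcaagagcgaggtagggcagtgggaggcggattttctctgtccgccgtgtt
Zfp994: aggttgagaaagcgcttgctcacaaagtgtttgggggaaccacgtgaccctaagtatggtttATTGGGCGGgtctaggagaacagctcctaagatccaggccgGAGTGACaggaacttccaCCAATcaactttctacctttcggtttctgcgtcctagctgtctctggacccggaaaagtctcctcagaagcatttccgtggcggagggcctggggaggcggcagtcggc
Zfp983: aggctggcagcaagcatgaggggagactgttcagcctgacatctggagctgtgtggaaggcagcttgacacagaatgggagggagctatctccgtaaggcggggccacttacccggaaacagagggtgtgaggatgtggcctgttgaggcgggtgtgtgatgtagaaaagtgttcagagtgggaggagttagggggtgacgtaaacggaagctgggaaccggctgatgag
Zfp961: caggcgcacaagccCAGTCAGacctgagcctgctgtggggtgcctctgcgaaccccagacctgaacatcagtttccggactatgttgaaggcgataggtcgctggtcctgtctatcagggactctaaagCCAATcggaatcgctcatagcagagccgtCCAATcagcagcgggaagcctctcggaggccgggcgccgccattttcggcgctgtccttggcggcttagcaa

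The second set compares close copies on chromosome 2, where *Zfp968* (chr2:175372236-175372465, plus strand) and *Zfp965* (chr2:175469825-175470054, plus strand) had no peak in any list and *Zfp971* (chr2:178023084-178023313, plus strand), which was added after its values were seen, had one in 5 lists.
Zfp968: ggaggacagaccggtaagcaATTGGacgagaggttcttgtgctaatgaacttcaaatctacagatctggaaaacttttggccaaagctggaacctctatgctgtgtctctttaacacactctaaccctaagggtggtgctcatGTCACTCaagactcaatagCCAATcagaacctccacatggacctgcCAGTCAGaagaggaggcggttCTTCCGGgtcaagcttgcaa
Zfp965: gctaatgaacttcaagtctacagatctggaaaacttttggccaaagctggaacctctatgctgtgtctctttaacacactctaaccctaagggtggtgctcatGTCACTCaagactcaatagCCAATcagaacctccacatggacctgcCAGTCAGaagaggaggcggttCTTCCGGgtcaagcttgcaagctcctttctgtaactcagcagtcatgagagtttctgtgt
Zfp971: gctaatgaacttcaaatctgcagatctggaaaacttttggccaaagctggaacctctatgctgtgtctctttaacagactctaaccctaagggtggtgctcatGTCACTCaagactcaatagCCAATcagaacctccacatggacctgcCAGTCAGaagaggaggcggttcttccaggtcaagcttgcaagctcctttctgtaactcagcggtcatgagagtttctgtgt

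The third set, also chosen after the values were seen, holds the 4 copies on chromosome 7, of which *Zfp977* (chr7:42592516-42592745, minus strand) and *Zfp936* (chr7:43177390-43177619, plus strand) had no peak, *Zfp976* (chr7:42642575-42642804, minus strand) had one in 6 lists and *Zfp975* (chr7:42692689-42692918, minus strand) in all 8.
Zfp977: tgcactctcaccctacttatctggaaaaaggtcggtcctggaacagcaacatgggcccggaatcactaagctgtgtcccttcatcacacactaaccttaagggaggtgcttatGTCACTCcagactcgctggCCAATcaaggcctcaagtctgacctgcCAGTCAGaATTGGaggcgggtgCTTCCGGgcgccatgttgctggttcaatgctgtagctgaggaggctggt
Zfp936: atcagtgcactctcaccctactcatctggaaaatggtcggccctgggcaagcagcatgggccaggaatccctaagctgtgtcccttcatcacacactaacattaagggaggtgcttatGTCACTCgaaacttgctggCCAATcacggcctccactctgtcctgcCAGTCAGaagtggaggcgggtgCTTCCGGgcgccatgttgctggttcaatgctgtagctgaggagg
Zfp976: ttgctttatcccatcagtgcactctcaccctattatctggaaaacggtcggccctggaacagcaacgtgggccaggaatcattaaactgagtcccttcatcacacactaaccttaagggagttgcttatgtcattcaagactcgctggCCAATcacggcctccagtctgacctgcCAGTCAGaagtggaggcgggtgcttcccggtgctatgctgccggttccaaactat
Zfp975: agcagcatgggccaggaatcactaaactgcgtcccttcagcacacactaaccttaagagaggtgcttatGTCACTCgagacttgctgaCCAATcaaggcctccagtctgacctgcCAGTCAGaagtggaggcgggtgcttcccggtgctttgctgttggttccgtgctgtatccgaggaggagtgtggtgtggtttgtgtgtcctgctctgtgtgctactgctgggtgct

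The Zfp9xx promoters ranged from a peak in all 8 lists to none in any. Here bound means a promoter peak in at least 1 list and silent means none in any of the 8 lists, with no statement on expression. In the pooled lists, 36 of 63 genes (57.1%) had a promoter peak of PBRM1 and 37 (58.7%) one of BRG1, where 70.2% and 73.7% of all protein-coding genes did. Both pooled lists held a peak for 34 genes (54.0%, against 69.3% of all genes). A peak in all 6 replicates was found for 22 genes (34.9%, against 53.5%) and in 1 to 5 of them for 14, while 24 genes (38.1%, against 24.8%) had none in any of the 8 lists. All 3 PBRM1 replicates held a peak for 23 genes (36.5%, against 53.8%), and all 3 BRG1 replicates for 28 (44.4%, against 62.9%). This order against all genes changed for some of these shares under a limit on sequence uniqueness, described further on. The part of uniqueness in the order was not tested. A limit was set to genes with at least 80% of 100-base words around the TSS found once in the genome. Under it, 7 of 39 Zfp9xx genes (17.9%) against 21.5% of all genes were in no list. A pooled PBRM1 peak was found for 76.9% against 73.4%, a pooled BRG1 peak for 76.9% against 77.0%, and a peak in all 6 replicates for 51.3% against 56.1%. Without this limit, the other 295 genes named Zfp with a number lay on the other side of this background, with 233 (79.0%) in all 6 replicates and 12 (4.07%) in no list. With it, they had 80.5% in all 6 replicates and 2.44% in no list. The limit itself mattered. With at least 80% unique 50-base words, 70.8% of Zfp9xx genes against 57.5% of all genes had a peak in all 6 replicates.

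By replicate, the PBRM1 lists held a promoter peak for 29, 31 and 26 of the 63 genes and the BRG1 lists for 34, 30 and 32. PBRM1 averaged 28.7 ± 2.52 genes (SD, n = 3), BRG1 averaged 32 ± 2 genes (SD, n = 3), and the ranges overlapped, since PBRM1 replicate 2 exceeded BRG1 replicate 2. The difference, PBRM1 minus BRG1, was −3.33 genes, and the test did not set the antibodies apart (two-sided exact permutation test, p = 0.2, where the smallest p that 3 against 3 allows is 0.1). With the strongest 20000 peaks of every list the difference was 0 genes (exact permutation test, p = 1). Among all protein-coding genes the BRG1 share was the higher one in every replicate, 66.9 ± 0.619% against 60.3 ± 2.89% for PBRM1 (SD, n = 3 each, exact permutation test, p = 0.1).

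**Figure D1:**
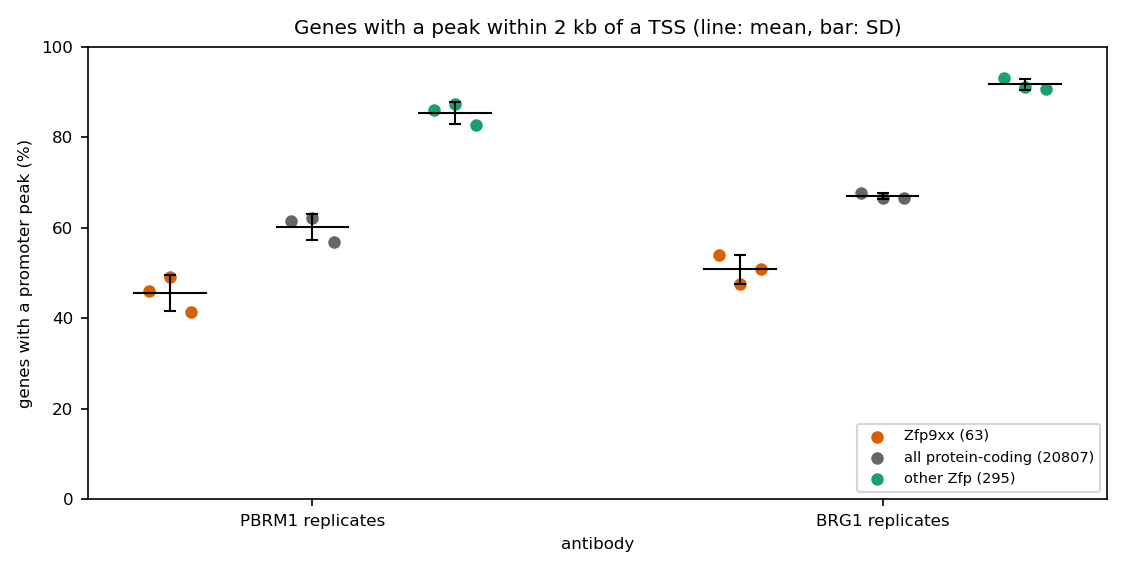
Percent of genes with a promoter peak in each replicate (points), with the mean (line) and SD (bar, n = 3), for the 63 Zfp9xx genes, all 20807 protein-coding genes and the other 295 Zfp genes, by antibody. The Zfp9xx points lie between 41.3% and 54.0%, below those of both other groups.

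The Zfp9xx promoter peaks ranged from weak to strong. The median fold enrichment over the 36 genes with a pooled PBRM1 peak was 8.26 (range 3.23 to 18.9), beside 6.94 for all protein-coding genes with a peak, and over the 37 with a pooled BRG1 peak it was 10.8 (3.27 to 20.5), beside 8.76. The other Zfp genes with a peak had nearly the same medians, 8.1 and 10.0. The weakest pooled peaks stood at percentile 22.6 (*Zfp984*, PBRM1) and 18.7 (*Zfp957*, BRG1) of their lists. These are medians over genes that passed peak calling and say nothing about the genes without a peak. Ranked against all peaks of the same list, the median Zfp9xx promoter peak stood at percentile 72.8, 76.2 and 78.6 in the PBRM1 replicates and 85.8, 82.5 and 83.7 in the BRG1 replicates. The groups did not overlap, and PBRM1 was lower than BRG1 by a mean difference of −8.13 percentile points (exact permutation test, p = 0.1, the smallest possible). The percentile depends on the length of the list, which was 21912 to 26363 peaks for PBRM1 and 36656 to 40610 for BRG1. With the strongest 20000 peaks of every list the difference was −9.38 points (exact permutation test, p = 0.1). The same difference for all protein-coding genes with the full lists was −7.90 points (p = 0.1), from 72.5 ± 1.45 to 80.4 ± 0.569 (SD, n = 3, exact permutation test).

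*Zfp963*, on chromosome 8, had the strongest PBRM1 promoter peak of the group. Its fold enrichment was 19.3, 16.9 and 12.7 in PBRM1 replicates 1, 2 and 3 and 18.5, 16.2 and 14.2 in the BRG1 replicates. The 2 antibodies overlapped, with means of 16.3 ± 3.34 and 16.3 ± 2.14 (SD, n = 3), and both pooled peaks lay above the 99th percentile of their list (99.9 and 99.8). Its pooled PBRM1 peak spans chr8:69749555-69750319 and covers the whole window printed above.

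*Zfp961*, a lone gene elsewhere on chromosome 8, had the strongest pooled BRG1 peak of the group, although *Zfp963* was narrowly higher in BRG1 replicates 1 and 2. The PBRM1 fold enrichments of *Zfp961* were 11.4, 10.6 and 7.57 and its BRG1 fold enrichments 18.4, 15.9 and 17.4. Every BRG1 replicate stood above every PBRM1 replicate. *Zfp956* showed the same order, with 10.1, 9.41 and 9.25 for PBRM1 and 13.8, 13.8 and 14.4 for BRG1. *Zfp994* and *Zfp983* lie in the chromosome 17 cluster, and their pooled PBRM1 fold enrichments were 12.7 and 12.2. For *Zfp994* the PBRM1 replicates were 12.3, 11.7 and 4.81 and the BRG1 replicates 8.97, 10.2 and 6.82. PBRM1 replicate 3 was the low one, and the antibodies overlapped. *Zfp983* gave 9.99, 10.1 and 8.33 for PBRM1 and 10.1, 10.6 and 11.4 for BRG1. Its means were 9.47 ± 0.987 and 10.7 ± 0.614 (SD, n = 3), with the BRG1 values narrowly above, while its percentiles within the lists overlapped. The remaining gene of this set, *Zfp954*, gave 9.36, 9.53 and 7.02 for PBRM1 and 9.49, 8.87 and 11.6 for BRG1, again with overlap.

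Of 18 lone genes, those with no other Zfp9xx gene within 500 kb, 11 had a peak in all 6 replicates (61.1%, near the 53.5% of all genes). The 6 with the highest pooled BRG1 fold enrichment were *Zfp961* (20.5), *Zfp956* (16.8), *Zfp940* (14.2), *Zfp938* (13.5), *Zfp954* (12.9) and *Zfp974* (12.8). *Zfp940* gave 7.45, 7.01 and 6.10 for PBRM1 and 11.9, 8.32 and 11.7 for BRG1, and *Zfp974* gave 7.26, 6.15 and 5.20 against 8.72, 10.7 and 11.2. In both, the antibodies did not overlap. *Zfp938* did not separate them by rank, with a mean percentile of 87.8 ± 7.15 (SD, n = 3) for PBRM1 that overlapped the 89.4 ± 1.36 (SD, n = 3) of BRG1. The other lone genes with a peak in all 6 replicates, *Zfp958*, *Zfp949*, *Zfp953*, *Zfp959* and *Zfp950*, had pooled values from 7.42 to 9.89 for PBRM1 and from 5.78 to 10.9 for BRG1. *Zfp941*, *Zfp960* and *Zfp952* each lacked a peak in 1 replicate. *Zfp957* had BRG1 peaks only, in replicate 1 (3.83) and in the pooled list (3.27), and *Zfp951* had none in any list.

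**Figure D2:**
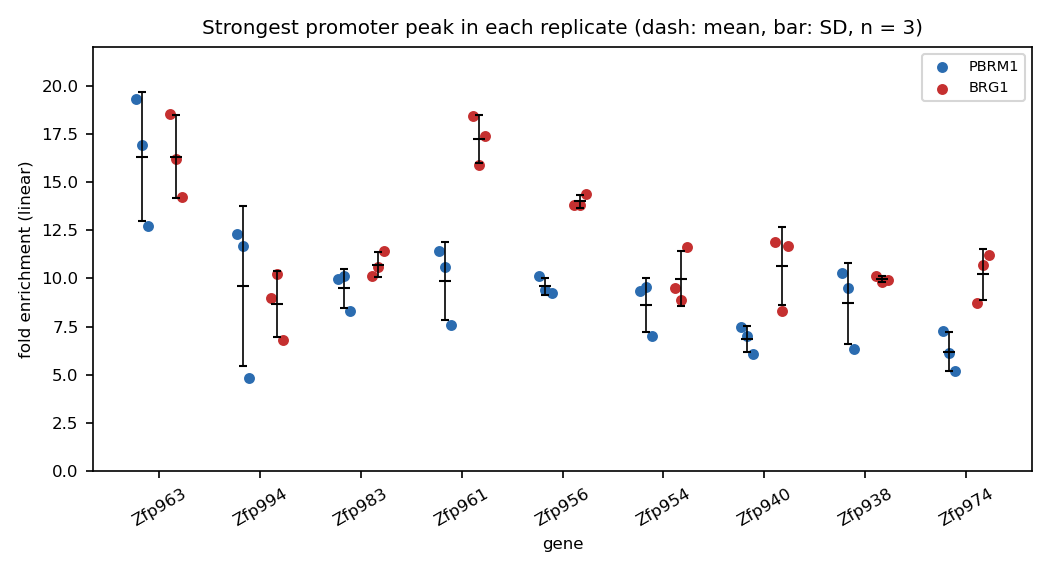
Fold enrichment (linear, y axis) of the strongest promoter peak in each replicate for 9 genes with a peak in all 6 replicates, PBRM1 in blue and BRG1 in red, with the mean (dash) and SD (bar, n = 3). Zfp963 is high with both antibodies, while the BRG1 points of Zfp961, Zfp956, Zfp940 and Zfp974 lie above all their PBRM1 points.

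Among the 22 genes with a peak in all 6 replicates, the 3 BRG1 percentiles stood above the 3 PBRM1 percentiles for 9 (40.9%), where the same held for 32.3% of all protein-coding genes with a peak in all 6. The reverse held for 1 gene (4.55%, against 3.66%), and the remaining genes overlapped. That gene was *Zfp949*, whose PBRM1 percentiles averaged 69.0 ± 5.48 (SD, n = 3) and whose BRG1 percentiles averaged 51.7 ± 8.62 (SD, n = 3). Of these 9 genes, *Zfp942* and *Zfp943*, share 1 peak, since their start sites lie 88 bp apart on opposite strands. On the scale of fold enrichment, which depends on the depth and background of each library, BRG1 stood above PBRM1 for 12 genes (54.5%, against 40.8% of all genes). The 3 genes separated by fold enrichment and not by rank were *Zfp975*, *Zfp948* and *Zfp983*. Both scales set libraries of different list length side by side, and the part of depth and list length in the order was not tested gene by gene.

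The summits lay close to the start sites. The median distance from the summit to the nearest annotated TSS was 93.0, 88.0 and 64.5 bp in the PBRM1 replicates and 65.5, 93.0 and 97.0 bp in the BRG1 replicates. The means of 81.8 ± 15.2 and 85.2 ± 17.1 bp differed by less than the spread between replicates (exact permutation test, p = 0.6). In the pooled lists the medians for the Zfp9xx genes were 106 bp for PBRM1 and 72 bp for BRG1. For all protein-coding genes, PBRM1 summits lay farther out, at 114 ± 3.21 bp against 88.7 ± 1.53 bp for BRG1 (SD, n = 3 each, exact permutation test, p = 0.1). In the pooled lists, 36 of 36 PBRM1 and 36 of 37 BRG1 promoter peaks had their summit within 500 bp of a TSS, and the exception was *Zfp957*. This was common to promoter peaks, with 86.6% (PBRM1) and 86.3% (BRG1) for all protein-coding genes with a peak. For the other Zfp genes the shares were 94.2% and 94.6%. With the direction of the gene taken into account, the median summit lay 59.5 bp downstream of the TSS for pooled PBRM1 and 7 bp downstream for pooled BRG1, where all protein-coding genes gave 8 bp downstream and 18 bp upstream and the other Zfp genes 43 bp downstream and 4 bp upstream. Away from the start sites peaks were few. The longest coding exon, 226 to 2219 bp in length, carried no peak over 2000 bp from a TSS in any of the 63 genes in either pooled list, where 2.5% of all protein-coding genes had one with PBRM1 and 4.44% with BRG1. Which exons encode zinc fingers and how unique their sequence is were not examined. Peaks anywhere in the gene body, over 2000 bp from any TSS, were found for 4 genes (6.35%, against 27.7% of all genes) with PBRM1 and 3 (4.76%, against 35.2%) with BRG1, the strongest in *Zfp961* (6.17 and 9.68). Gene length and sequence uniqueness were not matched in these shares.

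Most silent genes lay in a few clusters, though several clusters were mixed. When genes within 500 kb of each other were joined, 45 of the 63 fell into 8 clusters, and the clusters on chromosomes 4, 2 and 7 held 23 of the 24 silent genes. The largest, with 16 genes on chromosome 4 (chr4:145510759-147848366), held no gene with a peak in all 6 replicates and 13 with none in any list, namely *Zfp990*, *Zfp980*, *Zfp986*, *Zfp987*, *Zfp992*, *Zfp981*, *Zfp993*, *Zfp989*, *Zfp991*, *Zfp988*, *Zfp978*, *Zfp985* and *Zfp979*. The exceptions lay toward one end of the cluster. *Zfp933*, the last gene, had peaks in BRG1 replicates 1 and 2 (5.79 and 5.38) and in both pooled lists (4.51 for PBRM1 and 7.06 for BRG1). *Zfp984* had 1 peak in BRG1 replicate 3 (4.54) and 1 in the pooled PBRM1 list (3.23), and *Zfp982* had only a pooled PBRM1 peak (4.23).

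The 10 genes of the chromosome 17 cluster (chr17:21567008-22867134) gave the opposite picture. Each had a peak in both pooled lists, and 7 had one in all 6 replicates (*Zfp948*, *Zfp983*, *Zfp995*, *Zfp942*, *Zfp943*, *Zfp994* and *Zfp946*). *Zfp947* and *Zfp945* each lacked a peak only in PBRM1 replicate 3, and *Zfp944* lacked one in PBRM1 replicates 2 and 3. The peak that *Zfp942* and *Zfp943* share gave 8.52, 6.48 and 4.58 for PBRM1 and 11.2, 9.14 and 10.2 for BRG1. Pooled fold enrichments in this cluster ran from 5.16 (*Zfp944*) to 12.7 (*Zfp994*) for PBRM1 and from 6.84 (*Zfp947*) to 14.5 (*Zfp942* and *Zfp943*) for BRG1. The 3 genes on chromosome 8 (chr8:69209038-69749970), *Zfp930*, *Zfp964* and *Zfp963*, also had a peak in all 6 replicates. *Zfp930* gave 9.73, 6.30 and 5.17 for PBRM1 and 13.5, 11.2 and 11.8 for BRG1, and *Zfp964* gave 8.58, 9.09 and 7.92 against 11.9, 13.3 and 13, so that BRG1 stood above PBRM1 in both.

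Chromosome 2 held 10 clustered genes in 3 groups. *Zfp968*, *Zfp965*, *Zfp969* and *Zfp966* (chr2:175372436-175931100) had no peak in any list, nor had *Zfp967* and *Zfp973* (chr2:176521056-176719085). In the third group (chr2:177464733-178078476), *Zfp970* and *Zfp972* had none, and *Zfp931* had a pooled BRG1 peak (4.28) only. *Zfp971* had a peak in PBRM1 replicate 2 (5.37), in BRG1 replicates 1 and 3 (5.04 and 4.54) and in both pooled lists (4.72 and 5.13). *Zfp937*, a lone gene on the same chromosome, had a pooled BRG1 peak (4.28) only.

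The 4 genes on chromosome 7 (chr7:42579783-43192109) were mixed. *Zfp975* had a peak in every list, at 3.56, 5.86 and 6.39 for PBRM1 and 7.93, 6.77 and 7.83 for BRG1. *Zfp976* had one in PBRM1 replicate 3 (6.55) and in the 3 BRG1 replicates (8.03, 6.24 and 4.54). *Zfp977* and *Zfp936* had none in any list. On chromosome 13, *Zfp935* and *Zfp934* share an annotated TSS and 1 peak, found in PBRM1 replicates 1 and 2 (5.34 and 3.91) and BRG1 replicates 1 and 3 (5.04 and 6.25).

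**Figure D3:**
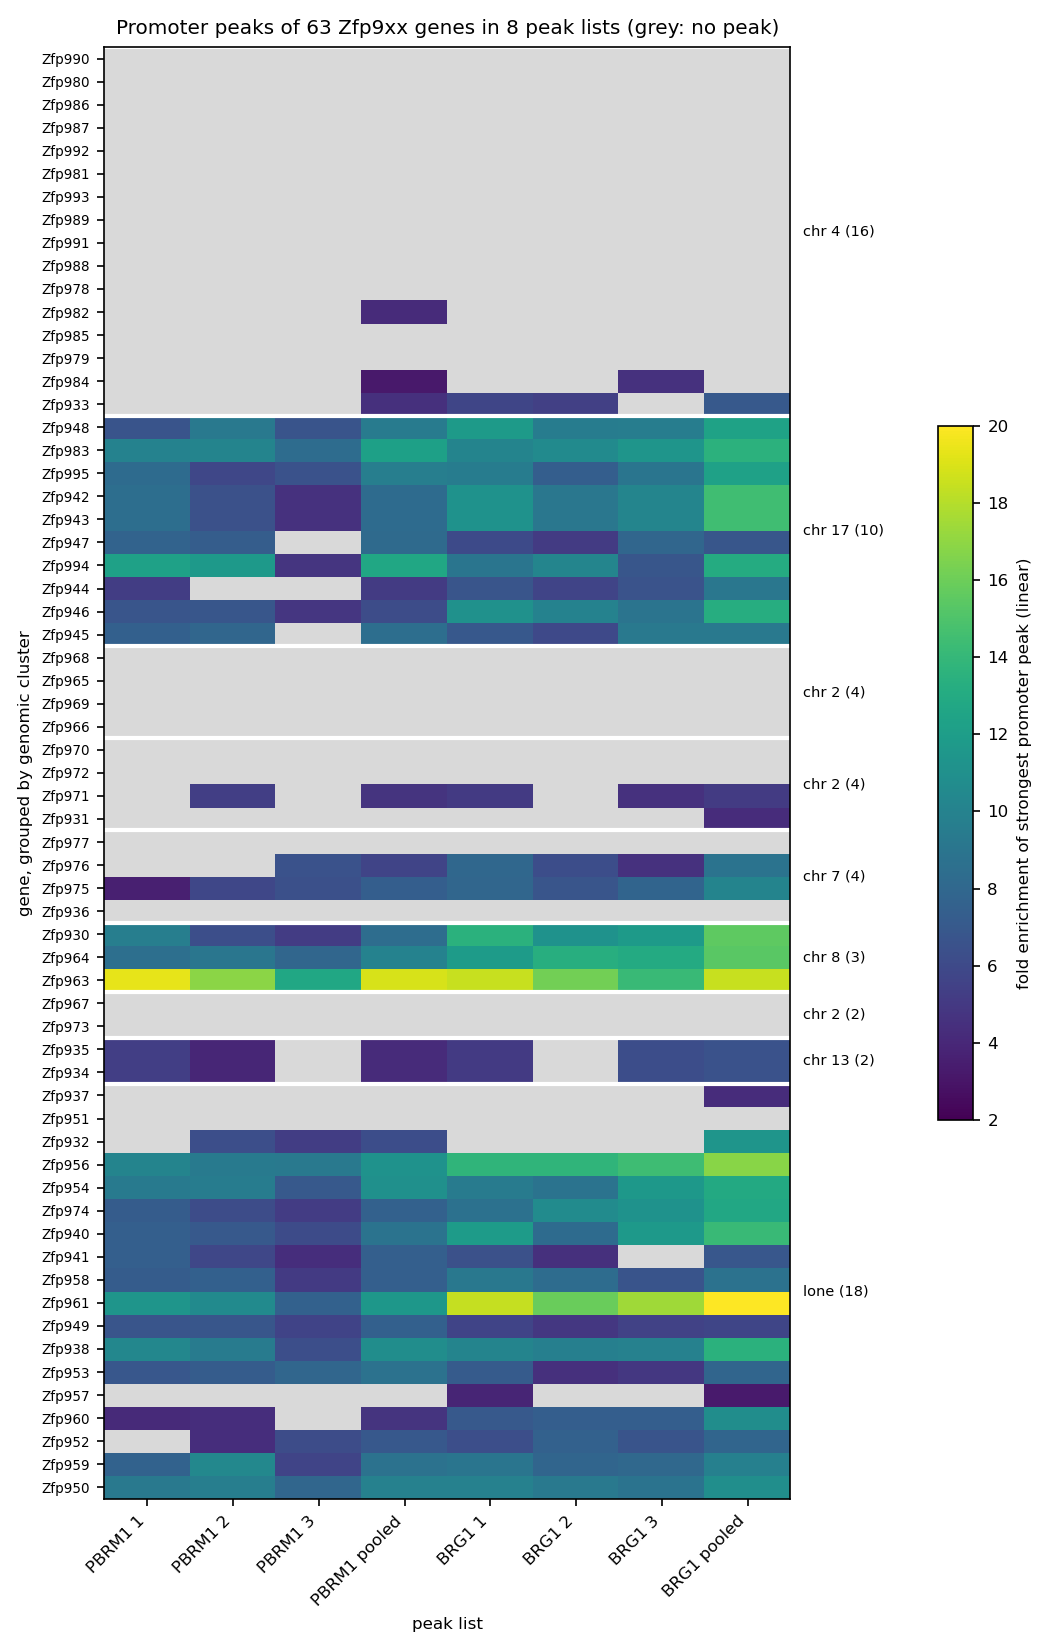
Fold enrichment (linear color scale, capped at 20) of the strongest promoter peak of each of the 63 genes (rows, by cluster with its chromosome and number of genes, in genomic order) in the 8 peak lists (columns). Grey is no peak. The clusters on chromosomes 4 and 2 are almost wholly grey, and those on chromosomes 17 and 8 almost wholly filled.

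Most other genes within the clusters had no peak either. Of 38 other protein-coding genes with a TSS inside these clusters, 27 (71.1%, against 24.8% of all genes) had no promoter peak in any list and 7 (18.4%, against 53.5%) had one in all 6 replicates. In the chromosome 4 cluster this was 6 of 6 without a peak, among them *Rex2*, *Zfp534* and *Zfp600*, and in the chromosome 17 cluster 3 of 8, of which *Vmn2r111* and *Vmn2r112* are vomeronasal receptor genes. The chromosome 4 cluster held 7 PBRM1 and 6 BRG1 pooled peaks of any kind, or 2.99 and 2.57 per Mb, and the first chromosome 2 group held none in 0.559 Mb. The chromosome 17 cluster held 17 of each, or 13.1 per Mb, where the autosomes had 22 PBRM1 and 33.1 BRG1 peaks per Mb. From the TSS of a silent gene, the nearest pooled PBRM1 peak lay a median of 201 kb away (8.62 to 998 kb, 24 genes) and the nearest BRG1 peak 138 kb (7.02 to 998 kb).

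These clusters also differ in how much of their sequence a read can be placed in. The authors discarded read pairs of low mapping quality, which removes most pairs that match several places equally well. As a measure of this, the share of 50-base words within 500 bp of a gene's TSSs that occur once in the genome was counted. Its median was 65.5% over the 63 genes and 100% over the other Zfp genes and over all protein-coding genes. Among the Zfp9xx genes the median was 91.5% (range 56.2 to 100%) for the 22 genes with a peak in all 6 replicates and 18.2% (0 to 82.1%) for the 24 with no peak in any list. *Zfp968*, *Zfp965*, *Zfp969*, *Zfp966*, *Zfp967* and *Zfp973* had no unique 50-base word at all, and each of their words occurred a median of 10 times. Across the whole cluster, 30.4% of the 50-base words were unique on chromosome 4, 78.5% on chromosome 17 and 0% in the first group on chromosome 2, where the autosomes had 89.4%. The read length is not given in the sources used here, and the part of sequence uniqueness in the missing peaks was not tested.

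**Figure D4:**
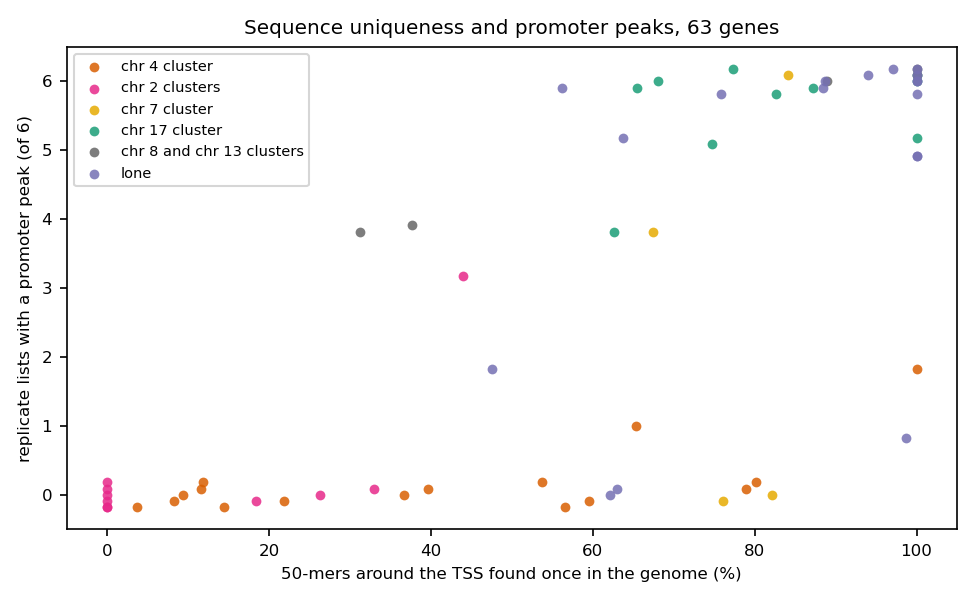
Number of replicate lists with a promoter peak (y axis, of 6, points shifted slightly to show overlaps) against the percent of 50-base words around the TSS that occur once in the genome (x axis), for the 63 genes, colored by cluster. The 9 genes under 10% have no peak, while genes from 50% upward range from 0 to 6 lists.

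The number of silent genes with mostly unique sequence depended on the word length. With 50-base words, 2 of the 24 genes without a peak had at least 80% unique sequence. With 100-base words, 7 of the 24 genes without a peak had at least 80% unique sequence, namely *Zfp985* (99.5%), *Zfp977* (98.3%), *Zfp936* (92.7%), *Zfp981* (90%), *Zfp990* (87.7%), *Zfp992* (81.1%) and *Zfp951* (80.2%). In turn *Zfp935* and *Zfp934* had peaks with 37.7% and 31.2% unique 50-base words, *Zfp971* with 44.0% and *Zfp932* with 47.5%. *Zfp933*, the chromosome 4 gene with the most lists, had 100%. *Zfp932* was at odds between its lists, with a pooled BRG1 fold enrichment of 11.4 but no peak listed in any BRG1 replicate, which held for 20 of 6318 pooled BRG1 peaks with a fold enrichment of at least 10.

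The Zfp9xx genes were then set beside all protein-coding genes of like uniqueness, as a description with no test. Below 10% unique 50-base words, 9 of 9 had no peak in any list, against 97.9% of 426 protein-coding genes. From 10 to 50% it was 8 of 13 (61.5%, against 85.9%), from 50 to 80% 5 of 17 (29.4%, against 68.6%), from 80 to 95% 2 of 9 (22.2%, against 42.3%), and from 95% upward 0 of 15 (0%, against 17.1%). For a peak in all 6 replicates the shares in the last 3 classes were 29.4%, 77.8% and 66.7%, against 16.4%, 42.7% and 59.3% of all genes. Above 10%, the Zfp9xx share without a peak was below that of all genes in each class. From 50 to 80% and from 80 to 95% it was above that of the other Zfp genes, of which 1 of 16 (6.25%) and 3 of 35 (8.57%) had no peak in any list, while from 95% upward 3 of 239 (1.26%) had none. These genes had a peak in all 6 replicates in 50.0%, 74.3% and 83.3% of cases in the last 3 classes. Under 50% there were only 5 other Zfp genes, and none of them had a peak. The classes hold few Zfp9xx genes, and clustered copies are not independent of each other.

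**Figure D5:**
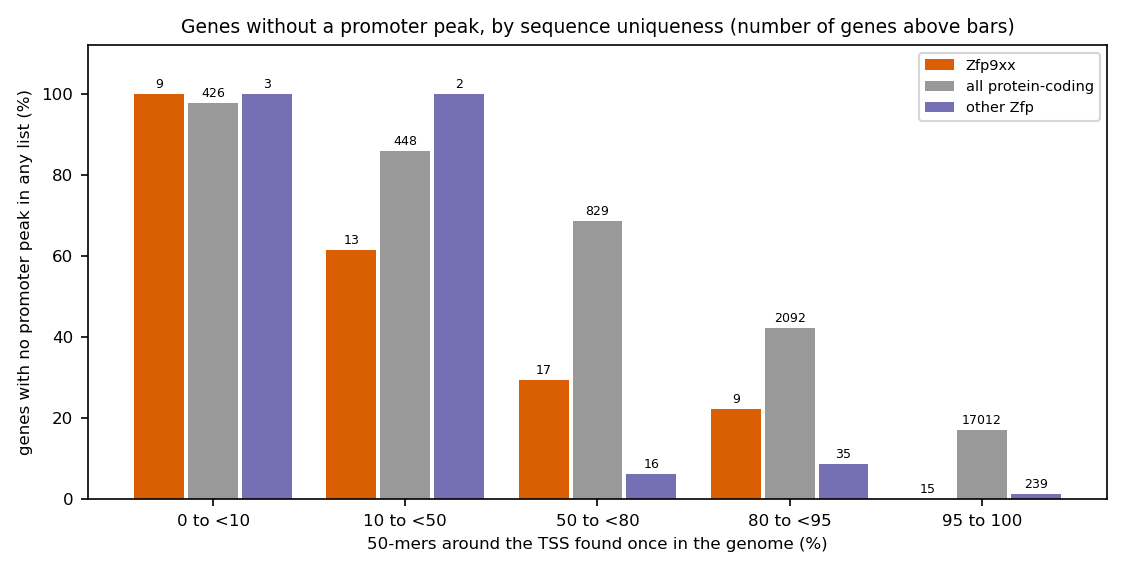
Percent of genes with no promoter peak in any of the 8 lists (y axis), by the share of unique 50-base words around the TSS (x axis), for Zfp9xx genes, all protein-coding genes and other Zfp genes, with the number of genes above each bar. The Zfp9xx bar is below that of all genes in the 4 classes from 10% upward, and above that of the other Zfp genes from 50 to 95%.

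Close copies among the printed sequences did not all have the same peaks. Over the 300-base RefSeq windows, *Zfp965* and *Zfp971* were 97.0% identical, with a peak in 0 and 5 lists. The pooled summits of *Zfp971* lay 391 bp (PBRM1) and 382 bp (BRG1) downstream of its RefSeq start, outside the printed and compared windows. The unique 50-base words of *Zfp965* and *Zfp971* were 0% and 44.0%, so that a lack of peaks at *Zfp965* cannot be told apart from a lack of placed reads. On chromosome 7, *Zfp977* and *Zfp936* were 91.3% identical to each other, *Zfp976* was 85.3% and 85.7% identical to them, and *Zfp975* 76.3% and 74.0%. Here the silent pair had 82.1% and 76.1% unique 50-base words, and the bound *Zfp976* and *Zfp975* had 67.5% and 84.1%. From the RefSeq start, the pooled PBRM1 and BRG1 summits lay at 73 and −15 bp for *Zfp976* and at −25 and −289 bp for *Zfp975*. Those at 73 and −289 bp fall outside the printed and compared windows. Over all 53 genes, the closest other member was a median of 70.7% identical (58.0 to 100%). The median was 63% for the 21 of them with a peak in all 6 replicates and 91.0% for the 17 with no peak in any list. Of 91 pairs of genes with windows at least 70% identical, 36 were silent on both sides, 9 had a peak in at least 1 list on both sides and 46 were mixed. Many of the mixed pairs include *Zfp965*, *Zfp966*, *Zfp967*, *Zfp968* or *Zfp973*, which have no unique 50-base word. There too, a lack of peaks cannot be told apart from a lack of placed reads. Others count *Zfp982* or *Zfp931*, with a peak in 1 pooled list only, as having a peak.

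The promoters shared a few short words. CCAAT was found in 46 of 60 windows (76.7%), where 37.5% of 19174 windows of protein-coding genes and 41.1% of windows of other Zfp genes held it. CCGGAAG was found in 30.0% (12.1% of all windows) and GGGCGG in 31.7% (48.3%). The TATA box word TATAAA (12.1% of all windows), the NRF1 word GCATGCGC (3.67%) and the palindrome TCTCGCGA (1.4%) were found in none of the 60. The YY1 word AAGATGGC (3.09% of all) and the cyclic AMP response element TGACGTCA (2.36%) were found in 1 window each (1.67%). Words this rare in all windows are few in 60 windows at the background share too, apart from TATAAA. Of the 53 genes with a window, 17 had no peak in any list and 21 had one in all 6 replicates. Of 14 genes with CCGGAAG, 9 had no peak in any list and 3 had one in all 6 replicates. Close copies were counted separately here, and many silent ones had little unique sequence. A link between words and peaks was not tested. In the printed copies, the CCGGAAG match was present in the silent *Zfp968*, *Zfp965*, *Zfp977* and *Zfp936* and not in *Zfp971*, *Zfp976* or *Zfp975*. Of 40 genes with CCAAT, 16 were in no list and 13 in all 6 replicates. Of 3 longer words chosen after viewing, CCAATCA, an extension of the NFY word, was in 56.7% of windows (8.76% of all). CAGTCAG was in 40.0% (5.58%) and GAGTGAC in 36.7% (4.51%). Of the 18 genes with both CCAATCA and CAGTCAG, 10 had no peak in any list and 4 had one in all 6 replicates, so that these words were shared by bound and silent copies. Of the words the study searched in its enhancer, TCCCAG was in 43.3% of windows (32.5% of all) and TCGGTG in 6.67% (7.93%). CCAGGGCCT was in none (0.944% of all), nor was GACCACT (2.50% of all).

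The windows were also poorer in G, C and CpG than those of most genes. The median GC content was 49.3% over the 60 Zfp9xx windows, 55.7% over other Zfp windows and 57.3% over all. The median number of CpGs was 7.5, 16 and 14. Windows of Zfp9xx genes with a peak in all 6 replicates had a median of 54.2% GC and 11 CpGs, and those with no peak in any list 48.3% and 5. Close copies were counted separately here too. The windows of all genes were not split by peaks, so that this difference is not shown to be particular to these genes.

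Genes listed for the KRAB corepressor pathway were bound almost throughout. The list was drawn up by hand and also holds *Dnmt1*, *Uhrf1*, *Daxx* and *Atrx*, of which *Atrx* lies on chromosome X, outside the background of all genes. No set of genes of like activity was set beside it, so that the share is not shown to be particular to this pathway. Of 24 genes of this corepressor pathway, 23 (95.8%, against 53.5% of all genes) had a promoter peak in all 6 replicates and 24 one in both pooled lists, and their median pooled value was 9.32 with PBRM1 and 10.7 with BRG1. *Trim28*, the corepressor itself, gave 12.3, 11 and 9.49 for PBRM1 and 9.09, 9.23 and 9.21 for BRG1, with every PBRM1 fold enrichment the higher. *Setdb1*, the methyltransferase it recruits, was the gene without a peak in 1 replicate (PBRM1 replicate 3), with 5.53 and 5.02 in the other PBRM1 replicates and 5.49, 5.35 and 8.98 for BRG1. *Atf7ip*, a partner of SETDB1, had pooled fold enrichments of 15.8 and 12.8, and *Cbx5*, which encodes an HP1 protein, 9.59 and 16.9. The 4 zinc finger genes of this list, which carry other numbers, were bound in every replicate. *Zfp57* and *Zfp445*, which protect imprinted loci, had pooled PBRM1 and BRG1 values of 8.50 and 10.1, and of 11.1 and 16.0. *Zfp809*, which silences retroviral DNA, had 16.7 and 16.6, and *Zfp568* 12.8 and 15.4.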

How the data were processed

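Peak lists were analysed of ChIC-Seq with antibodies to PBRM1 and BRG1 in D4 WT primary uterine stromal cells. The authors aligned trimmed pairs to mm10, dropped duplicates and poorly mapped pairs, and ran MACS 2.2.7.1 on each replicate and on the pooled fragments of each antibody. Per the file headers, no control was used, at a q-value cutoff of 0.05 with a background of 10000 bp. The deposited lists give a pileup signal, a fold enrichment (a ratio to local background), a −log10 p-value and a −log10 q-value for each peak.

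From these, promoter overlap was computed with GENCODE in Python 3.11.15, numpy 2.4.6, pandas 2.3.3, scipy 1.17.1, matplotlib 3.10.9 and Biopython 1.88. If several peaks overlapped a promoter, the one with the highest fold enrichment was used. Words of 36, 50 and 100 bases were taken every 5 bp and counted on both strands of GRCm38.p6 without alternate loci. Window identity is the share of identical bases in a global alignment with free ends. Antibodies were compared with two-sided exact permutation tests. Overlap, word counts and identity were tested on simulated data.

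The genes, lists and tests were chosen with earlier results of these data known. Genes were named by rule: the 6 highest pooled PBRM1 peaks found in all 6 replicates, up to 15 genes without a peak, those with a pooled peak of 1 antibody, the 3 largest clusters with ties, and 6 lone genes by BRG1. *Zfp932*, *Zfp934*, *Zfp935*, *Zfp949*, *Zfp951*, *Zfp930*, *Zfp964* and the neighbors were named after their values were seen. Protein sequences were not analysed here. Alternatives were other promoter distances, stricter peaks, other transcripts, summits, nearest genes, cluster gaps and word lengths, and each replicate left out.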

Additional observations from a re-analysis of the deposited data

How the results depend on the processing

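The counts of bound and silent genes kept within 1.5 times of the values above under each setting tried, namely promoters of 500, 1000 or 5000 bp, a −log10 q-value of at least 5, a fold enrichment of at least 4, basic transcripts, summits in the window, and peaks nearest to the gene itself. Leaving out 1 replicate gave 22 to 25 genes with a peak in all remaining replicates, 23 to 28 for PBRM1 alone and 28 to 31 for BRG1 alone. In a setting added after the data were seen, limited to the 39 genes with at least 80% unique 100-base words, 7 in place of 24 genes were in no list. The order against all genes under the same limit turned for the share in no list (17.9% against 21.5%) and for a pooled PBRM1 peak (76.9% against 73.4%). For a pooled BRG1 peak the shares were nearly level (76.9% against 77.0%). The share with a peak in all 6 replicates stayed below, at 51.3% against 56.1%.

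The difference in members per replicate, PBRM1 minus BRG1, ranged from −4.5 to −2 with a replicate left out, was 0 with the strongest 20000 peaks per list and −5 at a −log10 q-value of at least 5 (exact p = 1 and 0.1), and that in percentile from −9.51 to −6.61. The difference in summit distance of −3.33 bp turned to 2.67 bp with the strongest 20000 peaks per list and ranged from −13.2 to 5.33 bp with a replicate left out (5.33 without PBRM1 replicate 3, 0.583 without BRG1 replicate 2 and 2.58 without BRG1 replicate 3). The cause was not tested. With a replicate block (paired sign-flip test, smallest p 0.25) the differences kept their values of −3.33 genes, −3.33 bp and −8.13 percentile points (exact p = 0.5, 0.75 and 0.25). Same-numbered libraries did not deviate together (r of −0.0188, −0.0044 and 0.00479 over 11134 genes), so the numbers were not taken to pair the libraries. Over only the 22 Zfp9xx genes with a peak in all 6 replicates, r was −0.0404, 0.447 and 0.42 for same-numbered libraries. For differently numbered libraries it ran from −0.495 to 0.219 over the same genes. Joining genes within 250 or 1000 kb gave 11 or 6 clusters. The shallowest library held 8868777 fragments, and a gene without a peak may be occupied below the limit of this depth.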

Other observations

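Of the other 295 Zfp genes, 12 had no promoter peak in any of the 8 lists. *Zfp600* and *Zfp534* lie inside the chromosome 4 cluster, with 18.8% and 31.6% unique 50-base words around their start sites. *Zfp97*, *Zfp433* and *Zfp781* had 0%, 0.689% and 2.11%. In *Zfp352*, *Zfp735* and *Zfp616* the share was 92.9%, 94.3% and 86.9%, and in *Zfp541* it was 100%. These genes were chosen after their values were seen, and no comparison with expression was made.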
